A study of Mus musculus with 8 samples.

Results

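The oocyte Nlrp genes are the members of the reproductive clade of the mouse Nlrp family that oocytes transcribe, other than *Nlrp5*. They were taken by symbol from the gene count table: *Nlrp14*, *Nlrp2*, the 4-type genes *Nlrp4a*, *Nlrp4b*, *Nlrp4c*, *Nlrp4e* and *Nlrp4f*, and the 9-type genes *Nlrp9a*, *Nlrp9b* and *Nlrp9c*. These are 10 of the 45583 symbols in the table and 10 of the 21 symbols that begin with Nlrp and a number, and all 10 passed the filter on low counts. Whole ovaries of 3-week-old C57/Bl6 female mice were sequenced, 4 libraries labelled WT (animals 1118, 1119, 1120 and 1121) and 4 labelled GOAT KO (animals 1139, 1140, 1141 and 1146). GOAT, ghrelin O-acyltransferase, is the enzyme that adds the acyl group to ghrelin and is encoded by *Mboat4*. The GOAT KO mice carried a germline deletion of this gene in every tissue, and both genotypes were littermates from crosses of heterozygous parents with no treatment. Each library held the RNA of a whole ovary, read as single reads of 50 bases, so a transcript found in oocytes alone is diluted by the RNA of all other ovarian cells, and fewer oocytes cannot be told apart from less RNA per oocyte.

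NLR proteins hold a central NACHT domain that binds a nucleotide through a P-loop, followed by leucine-rich repeats, and the NLRP subfamily carries a pyrin domain at the N-terminus. The best known members, such as NLRP3, assemble inflammasomes in immune cells. A group of Nlrp genes has multiplied in rodents by tandem duplication and is transcribed mainly in oocytes, where the proteins are inherited by the early embryo. *Nlrp5*, also called Mater, and *Nlrp2* are known as maternal effect genes, and the product of *Nlrp5* belongs to the subcortical maternal complex of the oocyte. NLRP14 is needed for early embryonic development. Within the 4-type and within the 9-type the genes are close copies, and their separate roles are less well known.

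The P-loop shows the family resemblance. Below, 50 bases of the coding strand of each gene (GENCODE M21 transcripts, GRCm38) are centred on the P-loop, with the codons of the motif GxxxxGK(S/T), where x is any residue, in capitals. Each window lies within a single exon. They span 107181844 to 107181893 in *Nlrp14*, 5328803 to 5328852 in *Nlrp2*, 26449417 to 26449466 in *Nlrp4a*, 10714304 to 10714353 in *Nlrp4b*, 6065549 to 6065598 in *Nlrp4c*, 23320537 to 23320586 in *Nlrp4e*, 65195336 to 65195385 in *Nlrp4f*, 26557391 to 26557440 in *Nlrp9a*, 20023272 to 20023321 in *Nlrp9b*, 26385671 to 26385720 in *Nlrp9c*, on chromosome 7 but for *Nlrp4f* on chromosome 13. In all 10 genes the motif lay in the largest exon, of between 1555 and 1603 bases.

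Nlrp14: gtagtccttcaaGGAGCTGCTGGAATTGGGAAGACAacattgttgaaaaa
Nlrp2: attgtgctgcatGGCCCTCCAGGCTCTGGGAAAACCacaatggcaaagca
Nlrp4a: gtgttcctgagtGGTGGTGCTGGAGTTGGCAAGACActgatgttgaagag
Nlrp4b: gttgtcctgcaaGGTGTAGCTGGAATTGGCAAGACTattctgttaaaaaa
Nlrp4c: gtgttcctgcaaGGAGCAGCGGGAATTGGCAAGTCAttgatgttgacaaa
Nlrp4e: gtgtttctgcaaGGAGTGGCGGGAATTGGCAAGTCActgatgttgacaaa
Nlrp4f: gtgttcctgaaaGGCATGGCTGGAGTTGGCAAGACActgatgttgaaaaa
Nlrp9a: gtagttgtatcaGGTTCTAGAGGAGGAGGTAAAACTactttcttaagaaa
Nlrp9b: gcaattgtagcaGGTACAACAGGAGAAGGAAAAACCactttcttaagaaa
Nlrp9c: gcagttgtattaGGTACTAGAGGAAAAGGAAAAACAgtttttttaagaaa

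*Nlrp4c* and *Nlrp4e* had the most similar coding sequences of any pair, with 93.9% of the aligned bases identical, followed by *Nlrp9a* and *Nlrp9c* at 87.7%, *Nlrp4a* and *Nlrp4c* at 86.3%, *Nlrp4a* and *Nlrp4e* at 85.9% and *Nlrp9a* and *Nlrp9b* at 84.2%. Of the 50-base stretches of the coding sequence, 42.6% in *Nlrp4e* and 14.6% in *Nlrp4c* occurred unchanged in a transcript of another gene. Allowing 2 mismatches to another Nlrp gene, the share was 54.0% in *Nlrp4c*, 53.1% in *Nlrp4e*, 33.3% in *Nlrp4f* and between 15.6% and 22.9% in *Nlrp4a*, *Nlrp9a*, *Nlrp9b* and *Nlrp9c*. It was 1.65% in *Nlrp4b*. No such stretch was found in *Nlrp2* or *Nlrp14*, although 0.906% of the stretches of *Nlrp2* matched a transcript of *Gm21926* without change. Reads from shared stretches could be split between copies or dropped in the authors' counting, so the counts of *Nlrp4c* and *Nlrp4e* are uncertain as levels of a single gene. Untranslated exons were not searched.

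Of the 10 genes 9 lie on chromosome 7 of GRCm38. *Nlrp2* spans 5298547 to 5351035 on the minus strand, *Nlrp4c* 6045161 to 6105150, *Nlrp4b* 10687789 to 10730168, *Nlrp9b* 19991465 to 20073306 and *Nlrp4e* 23301192 to 23362277 on the plus strand. *Nlrp9c*, *Nlrp4a* and *Nlrp9a* follow one another, at 26322473 to 26403700 (minus strand), 26435113 to 26476142 and 26535023 to 26575615 (both plus strand). *Nlrp14* lies apart at 107166990 to 107198102 on the plus strand. *Nlrp4f* is the exception, on the minus strand of chromosome 13 at 65177111 to 65205977. Their longest coding transcripts hold 9 to 12 exons and encode 863 to 1046 residues.

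Counts on genes summed to between 16147216 and 19481798 per library. *Mboat4*, the targeted gene, had very few reads, and more under the GOAT KO label than under WT, with 1, 1, 1 and 3 reads in the libraries labelled WT and 5, 7, 7 and 8 in those labelled GOAT KO. At so few reads the part of the gene they came from was not resolved, and the groups are named as labelled throughout. The study also assayed *Mboat4* in ovaries by PCR, which was not analysed here. On a scaling plot of all genes the library labelled GOAT KO 1139 stood apart and the library labelled WT 1120 lay among those labelled GOAT KO, and the fold changes and spliced reads of the oocyte Nlrp genes were also computed without this pair. The ovarian source was checked with the 15 oocyte marker genes, among them *Gdf9*, *Zp3* and *Ddx4*, which summed to between 1114 and 1360 counts per 1000000 (CPM, with TMM scaling) in the libraries labelled WT and between 1145 and 1337 in those labelled GOAT KO.

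*Nlrp14* dominated the family. Its level per kb of exon, the scale on which different genes can be compared, was 108 ± 4.6 CPM per kb in libraries labelled WT and 121 ± 6.4 in those labelled GOAT KO (mean ± SD, n = 4), between 103.6 and 128.7 in single libraries. That was 6.29 times the next gene, *Nlrp4f*, and 2.77 times *Nlrp5*, which it exceeded in 8 of 8 libraries. In CPM, *Nlrp14* ranked 256 among the 16601 genes tested, by mean over 8 libraries, and it alone made up 55.4% to 58.2% of the summed CPM of the 10 genes.

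Below it came *Nlrp4f* at 18.2 CPM per kb (mean of 8 libraries), *Nlrp9b* at 15.3, *Nlrp4a* at 10.6, *Nlrp9a* at 9.23, *Nlrp2* at 8.08, *Nlrp4b* at 6.97, *Nlrp9c* at 4.48, *Nlrp4e* at 1.82 and *Nlrp4c* at 0.744. The distance from *Nlrp14* to *Nlrp4c* was 154-fold. Neighbours in this order did not overlap in the range of the 8 libraries, except *Nlrp4a* with *Nlrp9a*, *Nlrp9a* with *Nlrp2* and *Nlrp2* with *Nlrp4b*. Even there *Nlrp4a* exceeded *Nlrp9a* and *Nlrp2* exceeded *Nlrp4b* in 8 of 8 libraries, and *Nlrp9a* exceeded *Nlrp2* in 7 of 8. The places of *Nlrp9a*, *Nlrp2* and *Nlrp4b* depend on the length used: per kb of coding sequence the order was *Nlrp4b* (12.1), *Nlrp9a* (10.7), *Nlrp2* (9.03), where *Nlrp4b* has 2589 coding bases in an exon union of 4491. The other 7 genes kept their rank under both alternative lengths, but not their level: *Nlrp9c*, whose exon union has 5935 bases, measured 8.26 CPM per kb of its longest transcript, beside 8.33 for *Nlrp2*, and *Nlrp4a* measured 17.4 CPM per kb of coding sequence. *Nlrp4d* and *Nlrp4g*, 2 further 4-type symbols in the table, had no count in any library.

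**Figure D1:**
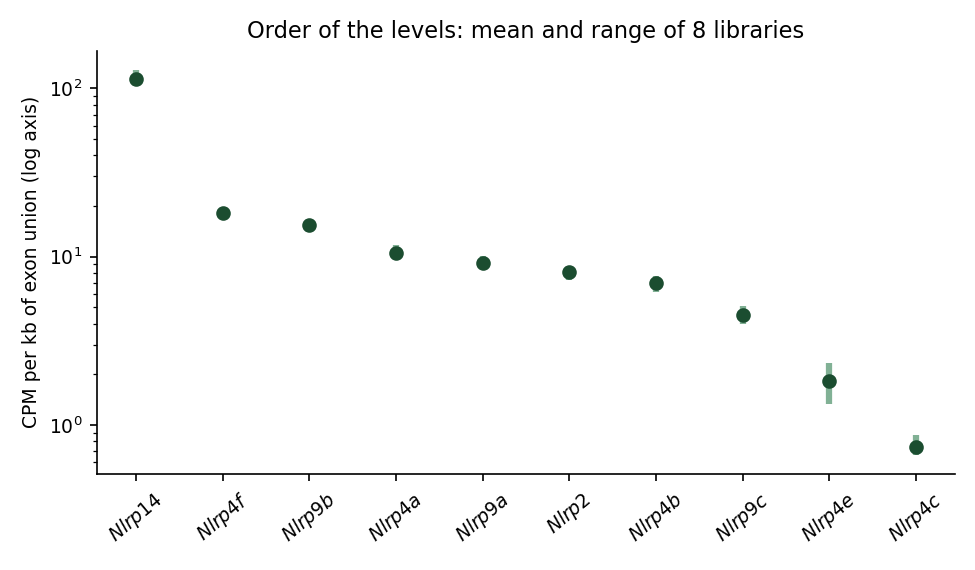
Level of each oocyte Nlrp gene in CPM per kb of exon union on a log axis, in descending order of the mean. Points are the mean of 8 libraries and bars reach from the lowest to the highest library, and *Nlrp14* stands 6.29 times above *Nlrp4f* while *Nlrp4e* and *Nlrp4c* lie at the bottom.

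None of the 10 genes was called different between the labelled groups. A gene counted as called where its unadjusted p was below 0.05 and its log2 fold change beyond 0.5 in either direction. By that measure 278 of 16601 genes (1.67%) were called in edgeR's quasi-likelihood test, 159 higher and 119 lower in libraries labelled GOAT KO. At an unadjusted p under 0.05 alone stood 1 of the 10 genes, *Nlrp14*, against 4.62% of all genes, and none of the 10 stood at an adjusted p below 0.05 (edgeR, with Benjamini-Hochberg correction across all the genes), against 0.0241% of them. DESeq2 also called none of the 10. The log2 fold changes of 9 of the 10 were above 0, with a median of 0.11 beside -0.00035 for all genes tested, of which 49.9% were above 0. The libraries and the oocytes in them are shared by all 10 genes, so these 9 are not independent of each other.

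*Nlrp14* measured 386, 367, 404 and 374 CPM in libraries labelled WT 1118, 1119, 1120 and 1121, and 425, 430, 455 and 400 in libraries labelled GOAT KO 1139, 1140, 1141 and 1146. Only WT 1120 and GOAT KO 1146 crossed, and the other 3 of GOAT KO exceeded all 4 of WT. The log2 fold change, GOAT KO over WT, was 0.16 ± 0.06 (SE, n = 4 per group; unadjusted p = 0.0210, adjusted p = 0.983 in edgeR's quasi-likelihood test over all genes), a 1.12-fold difference whose 95% interval ran from 0.03 to 0.29 on the log2 scale. Without WT 1120 and GOAT KO 1139 it was 0.19 (unadjusted p = 0.0129, adjusted p = 0.439, edgeR), again under the fold threshold, and its CPM no longer overlapped between the groups. It alone of the 10 was so, against 8.2% of all genes with GOAT KO above. In that set of 6 libraries no oocyte Nlrp gene was called, against 2.39% of all genes, and 1 of 10 stood at an unadjusted p under 0.05, against 9.46%.

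*Nlrp2*, a maternal effect gene known for its part in imprinting of the embryo, measured 28.0, 25.7, 27.2 and 27.8 CPM in libraries labelled WT and 30.9, 30.8, 29.3 and 27.0 in those labelled GOAT KO, in the order of animal numbers. The groups overlapped through GOAT KO 1146. The log2 fold change was 0.12 (95% interval -0.03 to 0.27).

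Among the 4-type genes, *Nlrp4f* measured 72.8, 66.7, 67.9 and 67.2 CPM against 70.5, 74.8, 74.6 and 69.5, and *Nlrp4a* 48.3, 48.1, 49.4 and 50.1 CPM against 52.0, 56.6, 56.3 and 48.4 (libraries labelled WT first). The *Nlrp4a* values of the 4 libraries labelled WT were close together, with a coefficient of variation of 1.92%, and 3 of the 4 libraries labelled GOAT KO lay above them. Their log2 fold changes were 0.08 (95% interval -0.05 to 0.20) and 0.12 (95% interval -0.02 to 0.27). *Nlrp4b* measured 34.5, 30.5, 27.9 and 29.8 CPM against 32.0, 34.0, 32.1 and 29.7, with the highest value in WT 1118 and the lowest in WT 1120, and a log2 fold change of 0.06 (95% interval -0.12 to 0.23). The value was 0.12 without WT 1118, 0.01 without WT 1120, 0.03 without GOAT KO 1140 and 0.09 without GOAT KO 1146.

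The remaining 4-type genes had the fewest reads of the family. *Nlrp4e*, with 78 to 156 reads per library, measured 4.83, 6.16, 6.08 and 5.72 CPM in libraries labelled WT and 7.47, 6.77, 7.98 and 4.53 in those labelled GOAT KO. This was the widest scatter of the family, with a coefficient of variation of 22.8% in libraries labelled GOAT KO, where 3 values lay above all values labelled WT and GOAT KO 1146 lay below them all. Its log2 fold change of 0.23 had an interval from -0.15 to 0.62, the only one of the 10 that reached past the fold threshold, and the value was 0.13 without GOAT KO 1141 and 0.38 without GOAT KO 1146. *Nlrp4c*, with 46 to 58 reads, measured 3.22, 2.83, 2.80 and 3.16 CPM against 2.99, 3.48, 2.71 and 2.67, with a log2 fold change of -0.02 (95% interval -0.35 to 0.31). That value was -0.11 without GOAT KO 1140 and above 0, at no more than 0.03, without WT 1118, WT 1121, GOAT KO 1141 or GOAT KO 1146.

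The 9-type genes differed little. *Nlrp9b* measured 56.8, 56.1, 55.7 and 52.1 CPM in libraries labelled WT and 60.0, 61.6, 62.6 and 52.1 in those labelled GOAT KO, so that again 3 of the latter lay above all of the former. *Nlrp9c* measured 28.0, 24.4, 25.8 and 23.7 CPM against 28.5, 30.3, 26.5 and 25.4. *Nlrp9a* measured 34.3, 31.5, 32.3 and 29.7 CPM against 29.8, 32.8, 35.1 and 31.6, fully interleaved. The log2 fold changes were 0.10 (95% interval -0.06 to 0.26), 0.12 (-0.06 to 0.30) and 0.02 (-0.15 to 0.18). Without GOAT KO 1140 the value of *Nlrp9c* was 0.07. That of *Nlrp9a* ran from -0.03 without GOAT KO 1141 to 0.05 without GOAT KO 1139, and was also below 0 without WT 1121. For 9 of the 10 oocyte Nlrp genes the 95% interval thus ended below a log2 fold change of 0.5, so that at this depth a difference of the size needed for a call lay outside the interval of all but *Nlrp4e*. Over all 8 libraries the groups separated fully for none of the 10, against 1.64% of all genes with every GOAT KO value above every WT value and 1.27% with every one below.

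**Figure D2:**
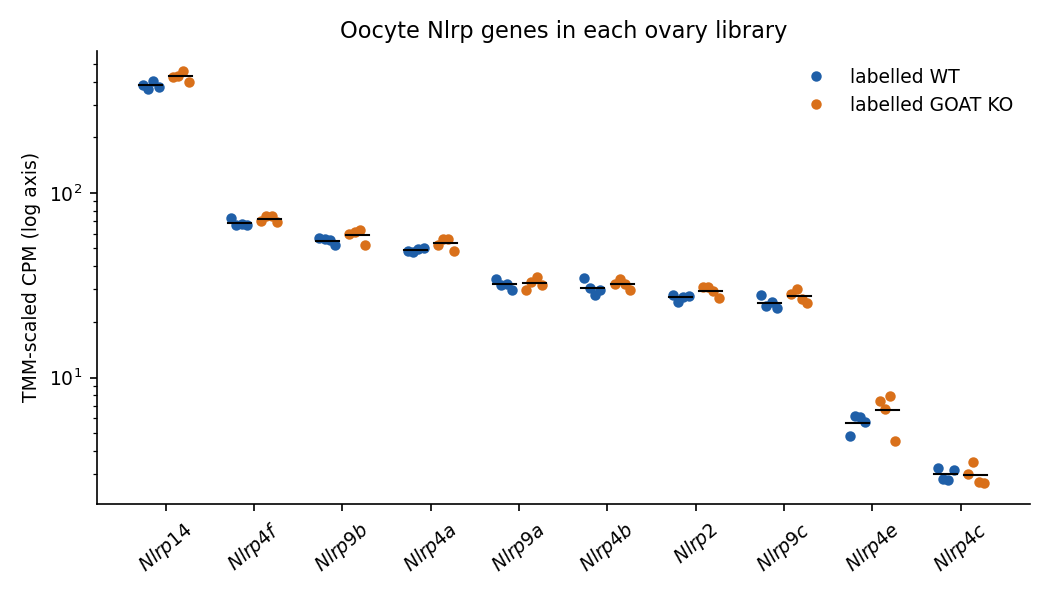
TMM-scaled CPM of each oocyte Nlrp gene on a log axis, 1 point per library, blue for the 4 labelled WT and orange for the 4 labelled GOAT KO, with a black line at the mean. The groups overlap for every gene, and GOAT KO 1146, the rightmost orange point, is the lowest orange point for 9 of the 10 genes.

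**Figure D3:**
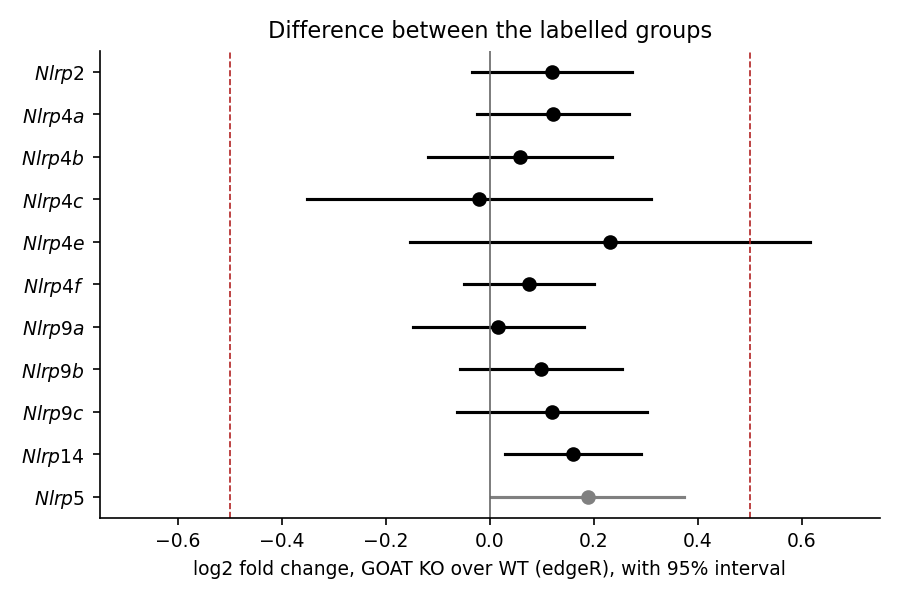
Log2 fold change of each gene, libraries labelled GOAT KO over WT, from edgeR with its 95% interval, and *Nlrp5* in grey for comparison. Dashed lines mark the fold threshold of 0.5 in either direction, which the interval of *Nlrp4e* alone crosses.

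Within the libraries labelled GOAT KO, all 10 stood above their own mean over the 8 libraries in GOAT KO 1140, 9 in GOAT KO 1139 and 8 in GOAT KO 1141, but none in GOAT KO 1146. In the libraries labelled WT the number was 5 in WT 1118 and 1 in each of the others. Summed over the 10 genes, the libraries labelled WT held 680 ± 21 CPM and those labelled GOAT KO 743 ± 39 (mean ± SD, n = 4), with 691 in GOAT KO 1146 and 739 to 783 in the other 3. Of the 15 oocyte markers, 14 stood above their own mean in GOAT KO 1140 and in GOAT KO 1141, 10 in GOAT KO 1139 and 3 in GOAT KO 1146, and in libraries labelled WT the number was 10 in WT 1118 and 1 to 4 in the others. The part of the oocyte share of the RNA in these differences was not tested. When libraries were scaled to the summed oocyte markers in place of TMM, which moved the median log2 fold change of all genes to -0.067 and the calls from 159 higher and 119 lower to 118 higher and 184 lower, the median of the 10 genes was 0.04 and that of *Nlrp14* 0.09 (unadjusted p = 0.389, adjusted p = 0.994, edgeR). The change of scaling shifts all genes alike, and with that shift the signs of *Nlrp4b* (-0.0060) and *Nlrp9a* (-0.05) turned.

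The library labelled GOAT KO 1146 was the lowest of its group for 9 of the 10 genes, *Nlrp9a* being the exception. Without it, *Nlrp14* (log2 fold change 0.19), *Nlrp4a* (0.17), *Nlrp9b* (0.15) and *Nlrp4e* (0.38) stood at an unadjusted p under 0.05, 4 of 10 against 4.41% of all genes, and all 10 values were above 0. None reached the fold threshold, and the adjusted p was 0.993 for each of the 4 (edgeR). GOAT KO 1146 is singled out here for its low values. Leaving out the lowest library of a group must raise the mean of the rest, so these 4 give no further support for a difference. Leaving out WT 1119, WT 1121 or GOAT KO 1141 in turn left none of the 10 at an unadjusted p under 0.05. Without both WT 1120 and GOAT KO 1139 the log2 fold change moved from 0.06 to 0.01 for *Nlrp4b*, from 0.02 to 0.06 for *Nlrp9a* and from -0.02 to -0.06 for *Nlrp4c*.

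Of the genes that are no oocyte Nlrp genes, those whose profile over the 8 libraries lay nearest to the mean profile of the 10, by root mean square difference of centred log2 CPM, were *Maged2* (0.034), *Brf2* (0.037), *St3gal5* (0.038), *Slc7a11* (0.039) and *Tubgcp2* (0.039). The median over 16591 genes was 0.164, and the 10 genes themselves lay between 0.032 (*Nlrp9b*) and 0.209 (*Nlrp4e*, the only one above that median) from their own mean. Such a likeness is a description of these 8 libraries.

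The partners of *Nlrp5* in the subcortical maternal complex, a protein assembly under the oocyte membrane, were measured beside the family. Of its 6 genes 1 was called, *Khdc3*, at 2.08 ± 0.55 CPM in libraries labelled WT and 3.06 ± 0.24 in those labelled GOAT KO (mean ± SD, n = 4; log2 fold change 0.55, unadjusted p = 0.0191, adjusted p = 0.983, edgeR), a call that was lost without WT 1118, without GOAT KO 1146 and with libraries scaled to the oocyte markers. It rested on 22 to 58 counted reads per library, whereas 727 reads in all crossed its introns and these did not separate the groups, at 31.7 spliced RPM against 32.5 (exact permutation p = 0.857). *Nlrp5* measured 188 ± 16 CPM against 214 ± 22, with a log2 fold change of 0.19 (unadjusted p = 0.0469, adjusted p = 0.983, edgeR), close to that of *Nlrp14*. The values were 0.17 for *Padi6*, a component of the cytoplasmic lattices of the oocyte, 0.07 for *Tle6*, 0.21 for *Ooep* and -0.14 for *Zbed3*. In spliced RPM the ratio, GOAT KO over WT, was 1.03 for *Nlrp5* (exact permutation p = 0.857). It was 0.996 for *Ooep* (exact permutation p = 0.971) and 1.14 for *Tle6* (exact permutation p = 0.0857). The median log2 fold change of the 6 was 0.18, beside 0.11 for the oocyte Nlrp genes and 0.09 for the 15 oocyte markers. Of these markers *Sohlh1* (0.87) and *Tbpl2* (0.68), both transcription factors of oocytes, were called higher. The call of *Sohlh1* was lost without WT 1118 and without GOAT KO 1141, and that of *Tbpl2* held in 13 of 13 alternatives. These calls rested on few counted reads per library, 22 to 121 for *Sohlh1* and 19 to 44 for *Tbpl2*. The adjusted p was 0.983 for each (edgeR).

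NLR genes of immune and epithelial cells were measured in the same libraries. Of 17 such genes 12 passed the filter and none was called. *Nlrp3*, the sensor of the classical inflammasome, lay at 0.636 ± 0.36 CPM in libraries labelled WT and 0.555 ± 0.13 in those labelled GOAT KO, and *Nlrp12* had no count. The highest of them were *Nod1* at 26.4 ± 1.3 CPM against 24.2 ± 1.4, *Nlrc5* at 23.5 ± 4.4 against 23.9 ± 3.6, *Nlrp10* at 25.9 ± 9.3 against 19.3 ± 3.9 and the mitochondrial *Nlrx1* at 15.3 ± 1.5 against 16.1 ± 1.7. Their median log2 fold change was -0.05. Of the 7 inflammasome partners 6 passed the filter and none was called, with *Casp1*, the protease they activate, at 1.09 ± 0.43 CPM against 1.10 ± 0.37. Leukocyte markers, of which 5 of 7 passed, summed to between 84.9 and 110.8 CPM in libraries labelled WT and between 64.2 and 86.8 in those labelled GOAT KO. None of the 5 was above 0 in log2 fold change, and *Lyz2*, the macrophage lysozyme, was called lower (-0.52), a call that was lost without WT 1118, WT 1121 or GOAT KO 1146. Of the 8 granulosa cell markers 1 was called, *Inhba*, a subunit of activin (0.95), and this call was lost without WT 1118, WT 1119, WT 1121 or GOAT KO 1146. None of the 6 theca and stroma markers tested was called.

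Reads across splice junctions, deposited separately for each library, gave another readout of the family from the same sequencing. *Nlrp14* had reads across all 10 introns of its longest transcript in 8 of 8 libraries, 8427 in all. Its spliced reads per 1000000 junction reads of the library (RPM) were 294, 347, 403 and 328 in libraries labelled WT and 413, 397, 414 and 356 in those labelled GOAT KO, which overlapped through WT 1120 (ratio 1.15; two-sided exact permutation p = 0.0857). In the other 9 genes between 1 and 8 introns of the longest coding transcript were listed in every library, and other introns were listed in part of the libraries only, as across 1 intron of *Nlrp9b* with no read in WT 1118 and 13 to 30 in the other 7. Over all 8 libraries only *Nlrp4a* of the 10 genes separated the groups, with 23.97, 25.7, 23.96 and 23.96 spliced RPM in libraries labelled WT against 29.2, 30.1, 36.7 and 27.7 in those labelled GOAT KO (ratio 1.27; exact permutation p = 0.0286, the smallest that 4 against 4 can give, unadjusted over 10 genes). Such separation with GOAT KO above held for 1.53% of 9495 genes with at least 100 spliced reads. When only the 4 *Nlrp4a* introns listed in all 8 libraries were counted, a choice made after the values were seen, the groups overlapped (ratio 1.20; exact permutation p = 0.0857). Without WT 1120 and GOAT KO 1139 the groups did not overlap in spliced RPM for 4 of the 10 genes, *Nlrp2* (ratio 1.38), *Nlrp9c* (1.31), *Nlrp4a* (1.28) and *Nlrp14* (1.20), each at an exact permutation p of 0.1, the smallest that 3 against 3 can give, and this held with GOAT KO above for 7.87% of the 9495 genes. With only the introns listed in all 8 libraries, and all 8 libraries, the ratio was 1.00 for *Nlrp2* (exact permutation p = 1) and 1.12 for *Nlrp9c* (exact permutation p = 0.0857).

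The position of the spliced reads along *Nlrp14* differed between the labelled groups more than their sum did. In the first 5 introns the libraries labelled WT held 193 ± 11 RPM and those labelled GOAT KO 189 ± 12, a ratio of 0.982. In the last 5 introns they held 151 ± 45 against 206 ± 16, a ratio of 1.37 (mean ± SD, n = 4). The share of spliced reads in the last 5 introns was 32.1%, 48.3%, 49.7% and 42.6% in libraries labelled WT and 51.5%, 51.3%, 53.8% and 51.7% in those labelled GOAT KO. The groups did not overlap (exact permutation p = 0.0286, the smallest possible), as was so, with GOAT KO above, for 1.34% of 7172 genes measured in the same way. *Nlrp14* was looked at in this way after its values were seen, so the p describes these libraries and no more.

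WT 1118 stood out in that measure. Its gene count of *Nlrp14* did not, at 386 CPM inside the WT range of 367 to 404. Across intron 9 of *Nlrp14* WT 1118 had 34 reads where the other 7 libraries had 105 to 188. Across intron 10 it had 53 against 96 to 133, while across intron 3 its 204 reads lay inside the range of 167 to 216. Without WT 1118, a choice made after the values were seen, the ratio over the last 5 introns was 1.21 and the groups still did not overlap in the share (exact permutation p = 0.0571, the smallest that 3 against 4 can give), as for 2.08% of 7172 genes with GOAT KO above. WT 1118 also had the lowest share of reads in the 3′ introns, or shared the lowest, for 6 of the 9 oocyte Nlrp genes that could be measured, namely *Nlrp4a*, *Nlrp4b*, *Nlrp4e*, *Nlrp4f*, *Nlrp9b* and *Nlrp14*. Over all 7172 genes it did not stand apart, with a median share of 56.2% beside 55.6% to 58.8% in the others. With all 8 libraries no other oocyte Nlrp gene separated the groups in this share. For *Nlrp4f* it ran the other way in the mean, at 45.5% in libraries labelled WT and 43.2% in those labelled GOAT KO (exact permutation p = 0.486), and without WT 1118 the groups no longer overlapped, at 48.1% against 43.2% (exact permutation p = 0.0571, the smallest possible), as for 2.86% of the 7172 genes with GOAT KO below.

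**Figure D4:**
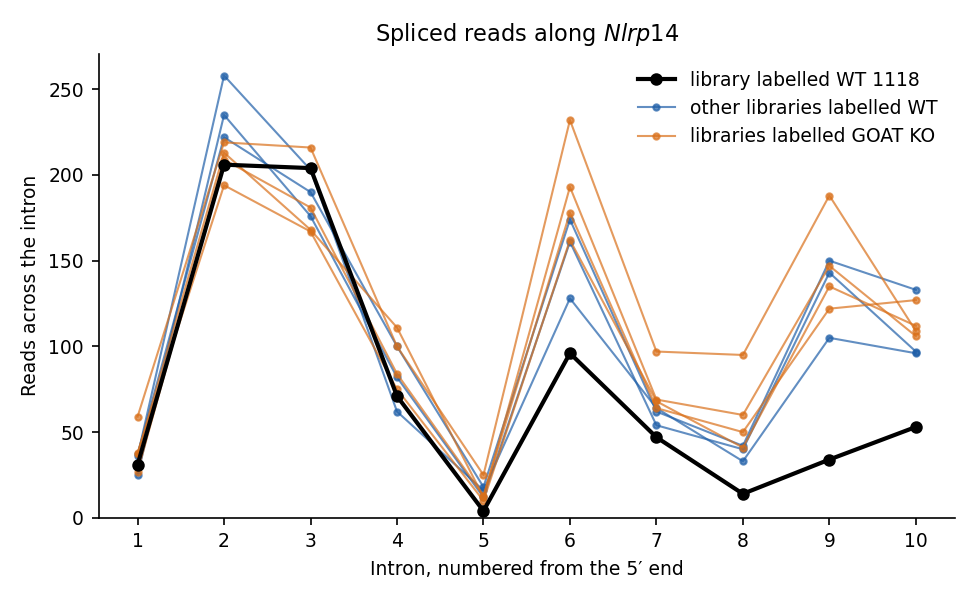
Reads across each of the 10 introns of *Nlrp14* in each library, introns numbered from the 5′ end. Library WT 1118 (black) runs with the others over introns 1 to 4 and lies below them over introns 5 to 10. The other libraries labelled WT (blue) and those labelled GOAT KO (orange) overlap or meet at each of these 6 introns, and the reads are not scaled to the depth of the library.

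The 9-type genes shared a splicing choice. In each of the 3 genes the exon that follows the large NACHT exon is 165 bases long, a whole number of codons (55), and reads were found that leave the NACHT exon and pass over it. The exon is coding sequence, at 26560675 to 26560839 in *Nlrp9a* and 20026516 to 20026680 in *Nlrp9b* on the plus strand and at 26382282 to 26382446 in *Nlrp9c* on the minus strand of chromosome 7. The coding strand of the 3 exons (GENCODE M21, GRCm38) is shown with capitals at the 46 positions where the copies differ.

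Nlrp9a: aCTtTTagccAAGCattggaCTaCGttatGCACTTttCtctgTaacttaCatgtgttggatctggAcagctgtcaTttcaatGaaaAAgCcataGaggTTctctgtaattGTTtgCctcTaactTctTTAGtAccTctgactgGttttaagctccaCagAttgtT
Nlrp9b: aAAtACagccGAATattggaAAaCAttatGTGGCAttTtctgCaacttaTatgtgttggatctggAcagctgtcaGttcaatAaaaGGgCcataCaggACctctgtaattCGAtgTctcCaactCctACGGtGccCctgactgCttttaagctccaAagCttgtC
Nlrp9c: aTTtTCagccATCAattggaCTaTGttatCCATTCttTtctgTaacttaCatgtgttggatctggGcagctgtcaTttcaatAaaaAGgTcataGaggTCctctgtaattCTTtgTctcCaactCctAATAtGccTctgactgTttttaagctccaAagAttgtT

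The exons of *Nlrp9a* and *Nlrp9c* were 84.2% identical, those of *Nlrp9b* and *Nlrp9c* 79.4% and those of *Nlrp9a* and *Nlrp9b* 75.8%. This identity bears on reads that enter the exon, and whether reads that skip it were assigned to the right copy was not tested. In *Nlrp9a* 23 of 74 reads that left the NACHT exon skipped the next exon, or 31.1% (95% exact binomial interval 20.8% to 42.9%). In *Nlrp9b* it was 30 reads beside 158 that entered the exon, or 16.0% (11.0% to 22.0%), with at least 2 skipping reads in each of the 8 libraries. In *Nlrp9c* it was 4 beside 12, or 25.0% (7.27% to 52.4%). The skipping junction is annotated for *Nlrp9a* and *Nlrp9c* but not for *Nlrp9b*. In *Nlrp14* no read passed over the exon after the NACHT exon, of 174 bases, beside 1505 reads that entered it, and in *Nlrp2* none passed over its exon of 171 bases, beside 68. These intervals cover counting error only.

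The authors' assembled transcripts held both forms. Transcripts without the exon were assembled in 7 of 8 libraries for *Nlrp9a*, 7 for *Nlrp9b* and 3 for *Nlrp9c*, and transcripts with it as an inner exon in 2, 5 and 1. The reads that leave the exon on its downstream side were fewer than those that enter it, 5 in *Nlrp9a*, 55 in *Nlrp9b* and 5 in *Nlrp9c*. A junction that the aligner missed on either side would move these shares. In *Nlrp9a* the 23 skipping reads exceeded the 5 that left the exon, so on that side skipping was the more frequent form. In *Nlrp9b* and *Nlrp9c* the skipping reads, 30 and 4, stayed below those that left the exon. The share skipping did not differ between the labelled groups beyond the spread of the libraries. In *Nlrp9a* it was 14.3%, 27.3%, 0% and 35.7% in libraries labelled WT and 22.2%, 45.5%, 30.8% and 60.0% in those labelled GOAT KO, on 4 to 14 reads each (difference of means 20.3 percentage points, exact permutation p = 0.143). The 0 in WT 1120 came from 4 reads. In *Nlrp9b* it was 8.33%, 12%, 7.69% and 29.0% against 22.2%, 10.5%, 15.4% and 21.1% (difference 3.03 percentage points, exact permutation p = 0.657).

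**Figure D5:**
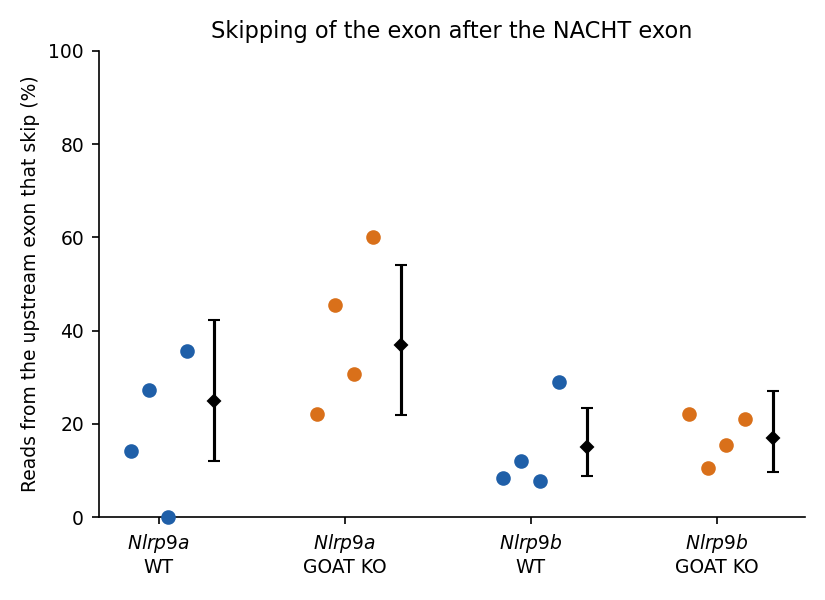
Percent of reads leaving the NACHT exon that skip the next, 165-base exon of *Nlrp9a* and *Nlrp9b*, 1 coloured point per library, with the reads of the group pooled as a black diamond and its 95% exact binomial interval. The intervals of the labelled groups overlap in both genes.

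Other junctions marked the ends of the transcripts. For *Nlrp9c* 213 reads joined the 3′ exon of the longest coding transcript and none the distal 3′ exons annotated beyond it. For *Nlrp4f* 127 reads used 1 splice site into the second exon and 7 another that lies further downstream, and for *Nlrp9b* 33 reads used an acceptor after the first exon and 3 another that lies just upstream. In *Nlrp14* 10 and 21 reads flanked an exon that is not annotated, inside the first intron, at 107167423 to 107167470, beside 290 that spliced straight across. Each side of it was listed in 4 and 5 of the 8 libraries, with both labels among them.

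The start sites were less well covered. RefSeq promoter windows of 250 bases before and 50 bases after the start (GRCm38.p6) were found for 9 of the 10 genes, 11 windows in all, without *Nlrp14*. Reads from the first exon at these starts into the next were found for *Nlrp4f* (134), *Nlrp9b* (36), *Nlrp4e* (2) and *Nlrp9c* (1), and none for the other 5 genes. The windows were searched on both strands for the TATA box TATAAA, the E-box CANNTG, which factors such as FIGLA bind, for elements of the oocyte homeobox factor NOBOX (TAATTG, its variant TAATTA, and also TAGTTG), and for TGATTG, an element of the oocyte factor LHX8. TGATTG was found in 6 of the 9 genes, *Nlrp2*, *Nlrp4a*, *Nlrp4b*, *Nlrp4c*, *Nlrp9a* and *Nlrp9c*, in 8 of 11 windows, against 14.04% of 32851 windows of all genes. Of these 6 genes only *Nlrp9c* had a read from the first exon at its start, 1 in all. No TGATTG was found in *Nlrp4f*, *Nlrp9b* or *Nlrp4e*, which had the other such reads. The genes include close copies, so their windows cannot be taken as independent. The windows of *Nlrp4b* overlap and hold the same match. Counted once per place in the genome, 6 of the 11 TGATTG matches overlapped the CCAAT box as CCAATCA, against 53.3% of the matches in all windows. An E-box was found in 8 of 9 genes (10 of 11 windows, against 72.3% of all windows), and a TATA box in *Nlrp9b* alone (13.6% of all windows). TAATTG was found in *Nlrp9a* and *Nlrp9b* (8.0% of all windows), TAATTA in *Nlrp9a* (5.29%) and TAGTTG in *Nlrp9b* (6.59%). A match is a stretch of letters and no evidence of binding.

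The 120 bases before the start are shown for 5 of the genes with TGATTG in them, with TGATTG or its reverse complement CAATCA in capitals, because this element was the most frequent of those searched relative to all windows. They lie on chromosome 7 (GRCm38.p6, RefSeq) at chr7:5351036-5351155 (minus strand, *Nlrp2*), chr7:26435494-26435613 (plus strand, the downstream of 2 starts of *Nlrp4a*), chr7:10687673-10687792 (plus strand, *Nlrp4b*), chr7:6045041-6045160 (plus strand, *Nlrp4c*) and chr7:26403701-26403820 (minus strand, *Nlrp9c*).

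Nlrp2: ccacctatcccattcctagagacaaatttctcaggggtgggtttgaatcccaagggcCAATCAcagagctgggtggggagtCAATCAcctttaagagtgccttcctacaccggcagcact
Nlrp4a: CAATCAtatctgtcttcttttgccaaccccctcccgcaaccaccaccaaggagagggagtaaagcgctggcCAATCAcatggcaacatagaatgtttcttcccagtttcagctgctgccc
Nlrp4b: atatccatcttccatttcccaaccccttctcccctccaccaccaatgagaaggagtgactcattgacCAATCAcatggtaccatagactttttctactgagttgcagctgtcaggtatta
Nlrp4c: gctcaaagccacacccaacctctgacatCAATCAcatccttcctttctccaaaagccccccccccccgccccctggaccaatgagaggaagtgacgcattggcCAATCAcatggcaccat
Nlrp9c: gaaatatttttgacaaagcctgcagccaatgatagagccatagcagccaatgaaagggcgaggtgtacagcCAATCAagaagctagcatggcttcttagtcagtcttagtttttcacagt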

How the data were processed

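RNA of whole ovaries was sequenced in 8 libraries, 1 per mouse. Per the submitters' processing notes the reads were aligned with TopHat2 2.0.14 and transcripts assembled with StringTie 1.0.4 against GENCODE vM6 (GRCm38). The counting tool and its strand setting are not given in the sources used here. The authors deposited whole-number counts of reads per gene, counts of reads across each junction, and assembled transcripts, whose coverage and FPKM values were not used.

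The deposited counts of all genes were tested with edgeR 4.0.16 (quasi-likelihood test, TMM scaling, filterByExpr with a minimum count of 10), with DESeq2 1.42.0 as an alternative, and the edgeR step was tested on simulated data. Depth ran from 16147216 to 19481798 counts on genes per library. Junction counts were matched to GENCODE M21 introns, divided by the junction reads of the library (2586686 to 3239382), and compared by two-sided exact permutation over libraries. The share in the 3′ introns was taken for genes with at least 6 introns and 100 reads. Intervals on shares are 95% exact binomial (Clopper-Pearson). Alternatives were RLE scaling, scaling to oocyte markers, no filter, 6 libraries, other lengths and junction sets, and leaving out each library.

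The members and lists were chosen with earlier results of these data known. The genes named were the 10 members, the called genes and the 4 highest of the maternal complex and of the other NLR genes, and the 5 genes nearest in profile. *Ooep*, *Nlrp3*, *Nlrp12*, *Casp1* and the called markers were added after their values were seen. P-values measure the spread between these mice.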

Additional observations from a re-analysis of the deposited data

Results flagged for a closer look

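Among 44 groups of 4 libraries checked for a single library far from the others, 2 stood out. Chance does so in about 1 of 20 groups, so about as many would be marked by chance alone. For the spliced reads of *Nlrp4a*, WT 1119 had 25.7 reads per 1000000 junction reads where the other 3 libraries labelled WT lay at 23.96 to 23.97. For the share of *Nlrp14* junction reads in the last 5 introns, GOAT KO 1141 had 53.8% where the next library labelled GOAT KO had 51.7%.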

How the results depend on the processing

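No member was called, and none had an adjusted p under 0.05, under any of the 13 alternatives to the edgeR fit. The median log2 fold change of the 10 genes ran from 0.04 (scaled to oocyte markers) to 0.16 (without GOAT KO 1146). Of 130 log2 fold changes 8 changed sign. With oocyte scaling these were *Nlrp4b* (-0.0060) and *Nlrp9a* (-0.049). *Nlrp9a* was also below 0 without WT 1121 (-0.02) and GOAT KO 1141 (-0.029), and ran from -0.029 to 0.054 with a library left out. *Nlrp4c* was above 0 without WT 1118 (0.01), WT 1121 (0.0033), GOAT KO 1141 (0.02) and GOAT KO 1146 (0.025), and ran from -0.11 to 0.025. The number of members at an unadjusted p under 0.05, 1 in the edgeR fit, was 0 with oocyte scaling and from 0 to 4 with a library left out. The cause was not tested.

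Genes called over all genes numbered 278, 691 with no filter on low counts, and 231 to 437 with 1 library left out, the highest without WT 1120. Called genes in the lists were few and moved: the other NLR genes had 1 with no filter and 1 with 6 libraries (0 to 1 with a library left out), the granulosa cell markers 2 with 6 libraries (0 to 2), the subcortical maternal complex 0 with oocyte scaling (0 to 1), the oocyte markers 1 to 3, the leukocyte markers 0 to 1, the theca and stroma markers 0 to 2 and the inflammasome partners 0 to 1 with a library left out. *Khdc3* was the 1 called in the maternal complex and was lost without WT 1118 or GOAT KO 1146. The spliced reads of 1 member, *Nlrp4a*, reached an exact permutation p under 0.05, against 0 with 6 libraries (log2 ratio 0.36, p = 0.1, the smallest that 3 against 3 can give) and 0 with junctions listed in all 8 libraries (0.27, p = 0.0857). With those junctions, chosen after the values were seen, the log2 ratios of *Nlrp4b* (-0.023), *Nlrp4c* (-0.060), *Nlrp4e* (-0.19) and *Nlrp9b* (-0.0029) were below 0.

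No paired analysis was possible because the replicate numbers are animal numbers and the groups share none. The intervals of the fold change were widest for *Nlrp4c* and *Nlrp4e*, with 46 to 58 and 78 to 156 reads per library, and the part of depth in this was not tested.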
